A study of Mus musculus with 6 samples.

Results

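Calcineurin is a phosphatase switched on by calcium and calmodulin that links calcium signals to gene expression, and the transcripts described here encode its subunits, its Rcan regulators and its NFAT targets in mouse hearts that lost cyclin C in heart muscle cells. The 9 genes were chosen by name: Ppp3ca and Ppp3cb (catalytic subunits), Ppp3r1 (regulatory subunit), Rcan1 and Rcan2 (regulators of calcineurin), and Nfatc1, Nfatc2, Nfatc3 and Nfatc4 (transcription factors). All 9 were found among 24315 rows, each as a single row, and all 9 were above the filter on low values. RNA was sequenced from whole hearts of 6 male mice aged 6 weeks on a C57Bl6J background. The 3 cKO mice carried floxed cyclin C alleles (fl/fl) and a Cre recombinase under the alpha myosin heavy chain promoter (aMHC cre), which is active in heart muscle cells. The 3 fl/fl mice carried the floxed alleles and no Cre, so the deletion and the presence of Cre differed together. Each sample is described as the heart of its own mouse. Values are FPKM, which counts mapped fragments relative to transcript length and library size, so levels of different genes can be set side by side.

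When cytosolic calcium stays raised, calcium-bound calmodulin activates calcineurin, which removes phosphate groups from NFAT proteins and lets them enter the nucleus. There NFAT proteins act with partners such as GATA4 and MEF2, and in the mouse heart the pathway is best known for driving enlargement of heart muscle cells. Rcan proteins bind calcineurin and can inhibit it, and a short form of Rcan1 is itself switched on by NFAT, which closes a feedback loop. The activity of the pathway depends on phosphorylation and on where NFAT sits in the cell, neither of which RNA levels measure.

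None of the 9 transcripts changed between genotypes at the threshold used (limma, adjusted p under 0.05), beside 0.587% of all 12103 tested genes that did. The adjusted p-values of the 9 ran from 0.389 to 0.988, and 2 of the 9 had an unadjusted p under 0.05 beside 12.7% of all tested genes. The log2 changes, cKO minus fl/fl on the log2(FPKM + 1) scale, were positive for 5 and negative for 4, with a median of 0.0426, beside -0.00196 over all tested genes. They ran from -0.15 for Ppp3r1 to 0.31 for Nfatc4. The authors' deposited table called 0 of the 9, beside 3.77% of 12587 genes tested there, and its q-values for them ran from 0.484 to 0.993. A p that misses the threshold does not show that levels were equal, so the 95% interval of each change is given with it.

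**Figure D1:**
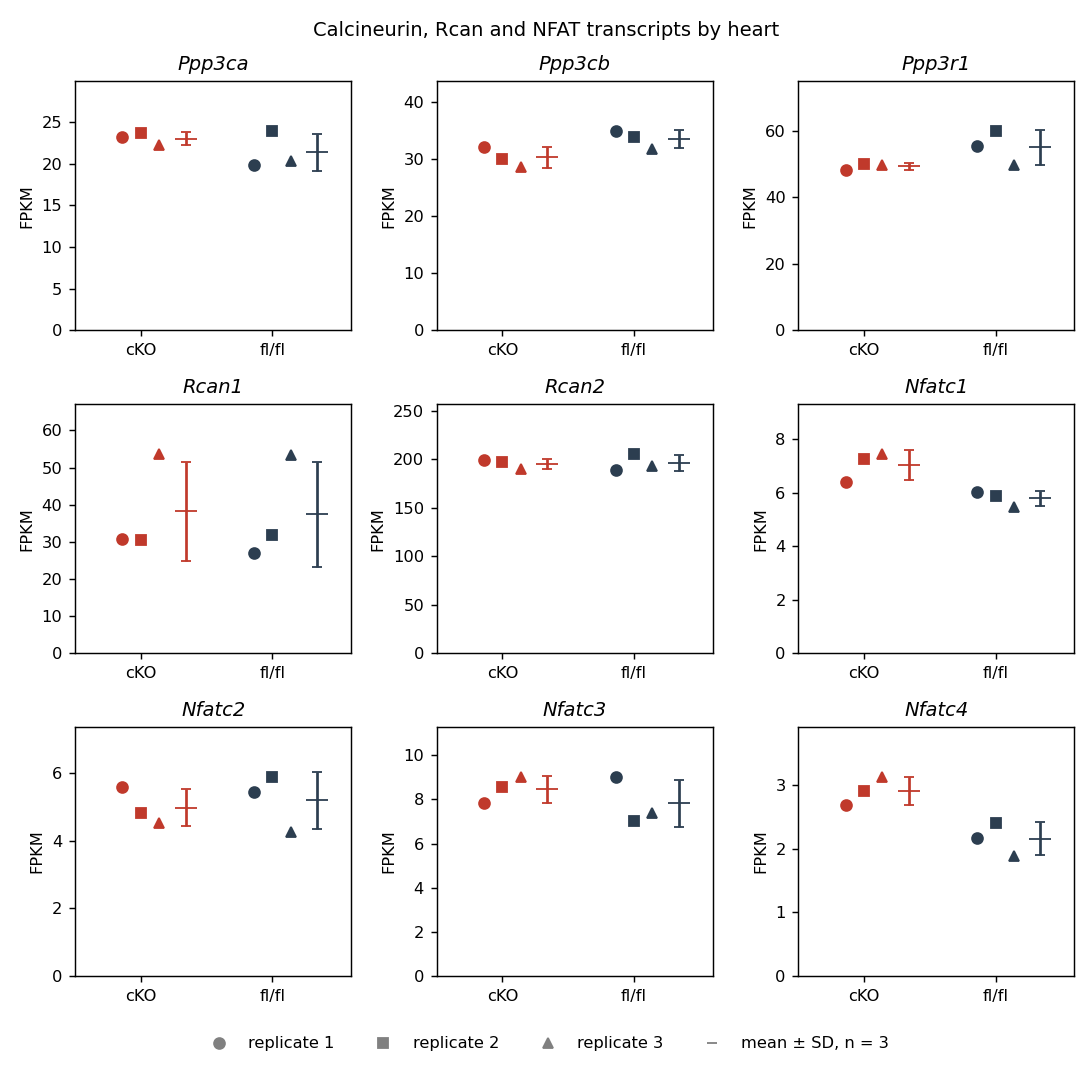
FPKM of each transcript (y axes, from 0) in the 3 cKO and the 3 fl/fl hearts, with replicates 1 to 3 as different symbols and the mean ± SD (n = 3) beside them. The cKO hearts all lie above the fl/fl hearts for Nfatc1 and Nfatc4, and the pair of replicate 3 hearts stands above the others for Rcan1.

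The libraries as a whole set limits on what follows. The sum of FPKM was 589196 to 616158 in cKO and 627881 to 768960 in fl/fl, and read numbers are unknown. The targeted gene, Ccnc, read 5.81, 5.7 and 4.53 FPKM in cKO 1 to 3, against 8.48, 7.6 and 10.8 FPKM in fl/fl 1 to 3, without passing (limma, adjusted p = 0.144). Markers of ventricular heart muscle cells summed to 36080 to 42060 FPKM over 10 genes in cKO and 62150 to 86560 FPKM in fl/fl. Of these 10, 8 had a lower mean in cKO and 2 a higher one, with 2 called. Endothelial markers summed to 571 to 758 FPKM over 10 genes in cKO and 489 to 524 FPKM in fl/fl, and fibroblast markers to 1122 to 1298 FPKM over 8 genes in cKO and 952 to 1098 FPKM in fl/fl. Sums of the next 4 lists overlapped between genotypes. Macrophage markers came to 171 to 184 FPKM in cKO and 182 to 214 FPKM in fl/fl, and smooth muscle and pericyte markers to 334 to 373 FPKM in cKO and 339 to 353 FPKM in fl/fl. Endocardial and valve markers came to 77.8 to 98.2 FPKM in cKO and 63 to 86.3 FPKM in fl/fl, and atrial markers to 1192 to 4164 FPKM in cKO and 3503 to 6205 FPKM in fl/fl. All 5 atrial markers had a lower mean in cKO, with 1 called. Nppa, which varied widely between hearts of the same genotype, was the largest part of the atrial sum in every heart. Library fl/fl 1 held thymocyte and T cell transcripts, whose markers summed to 111 FPKM there and to at most 6.38 FPKM elsewhere, and adipocyte transcripts, at 427 FPKM there and at most 18.6 FPKM elsewhere. Lung markers summed to no more than 0.353 FPKM in cKO 1 to 3, against 4.08, 18.3 and 0.04 FPKM in fl/fl 1 to 3, and 3 of the 4 (Sftpa1, Sftpb and Sftpc) were listed at the floor value of 0.01 FPKM in every cKO heart. In whole tissue, fewer cells of a type and less RNA per cell cannot be told apart.

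The levels of the 9 transcripts were ordered much alike in every heart. Rcan2 stood first, with a mean over the 6 hearts of 195.6 FPKM, and was the most abundant of the 9 in 6 of 6 libraries. Ppp3r1 followed at 52.2 FPKM, Rcan1 at 37.8 FPKM, Ppp3cb at 31.9 FPKM and Ppp3ca at 22.2 FPKM. The NFAT genes were lower, at 8.14 FPKM for Nfatc3, 6.41 FPKM for Nfatc1, 5.07 FPKM for Nfatc2 and 2.53 FPKM for Nfatc4. By mean FPKM, Rcan2 lay above 96.2% of tested genes, and Nfatc4 above 13.8%. Ppp3r1 and Rcan1 were in this order in 4 of the 6 libraries, and Rcan1 and Ppp3cb in 3, so these neighbours did not differ beyond their spread. Nfatc1 stood above Nfatc2 in 5 libraries and Nfatc3 above Nfatc1 in 6, but the ranges over the 6 hearts overlapped in both cases. The other neighbours did not overlap.

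Ppp3ca and Ppp3cb encode alternative catalytic subunits, called alpha and beta, and the beta form is the one whose loss in mice blunts growth of the heart under pressure. Ppp3ca read 23.1, 23.7 and 22.2 FPKM in cKO 1 to 3, against 19.9, 23.9 and 20.3 FPKM in fl/fl 1 to 3. The cKO hearts lay close together within the span of the fl/fl hearts, where fl/fl 2 was the highest of all 6. The log2 change was 0.11 (SE 0.10, 95% interval -0.12 to 0.34; limma, adjusted p = 0.685). Ppp3cb read 32.1, 30 and 28.6 FPKM in cKO 1 to 3, against 34.9, 33.8 and 31.7 FPKM in fl/fl 1 to 3. The genotypes overlapped through cKO 1 and fl/fl 3, and the 2 lowest values were both in cKO. Its log2 change was -0.14 (SE 0.09, 95% interval -0.35 to 0.06; limma, adjusted p = 0.535). The deposited coordinates place Ppp3cb on 1 stretch, chromosome 14, 21318535 to 21437576, with Usp54 and 1810062O18Rik, so reads of overlapping genes there may not be fully separable. The build of these coordinates is not settled, and they do not match the GRCm38.p6 positions used for promoters below.

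The changes of the catalytic subunits had opposite signs, and their sum overlapped between genotypes. Ppp3ca and Ppp3cb together came to 55.3, 53.7 and 50.8 FPKM in cKO 1 to 3, against 54.7, 57.7 and 52 FPKM in fl/fl 1 to 3. The share of Ppp3ca in that sum was 41.9%, 44.1% and 43.7% in cKO, against 36.3%, 41.4% and 39.1% in fl/fl. This share was higher in each cKO heart than in any fl/fl heart, though cKO 1 and fl/fl 2 were close. It was computed after the single values were seen and is given with no test. As a mean it was 43.2% ± 1.2 in cKO and 38.9% ± 2.56 in fl/fl (SD, n = 3 each). Ppp3cc, the third catalytic gene, known mainly from testis, was measured at 19.2 ± 1.19 FPKM in cKO and 20.1 ± 1.82 FPKM in fl/fl (SD, n = 3 each), a level near that of Ppp3ca. It is not part of the sum or the share above.

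Ppp3r1 encodes calcineurin B, the calcium-binding subunit that every catalytic subunit needs. Its transcript read 48.2, 50.1 and 49.8 FPKM in cKO 1 to 3, against 55.6, 60 and 49.6 FPKM in fl/fl 1 to 3. The cKO hearts lay close together and below fl/fl 1 and fl/fl 2, while fl/fl 3 was among the cKO values. The log2 change was -0.15 (SE 0.10, 95% interval -0.37 to 0.07; limma, adjusted p = 0.543). The ratio of Ppp3r1 to the sum of Ppp3ca and Ppp3cb was 0.871, 0.934 and 0.981 in cKO and 1.02, 1.04 and 0.953 in fl/fl, and the genotypes overlapped. Ppp3r2, a second B subunit gene known from testis, did not pass the filter on low values.

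**Figure D2:**
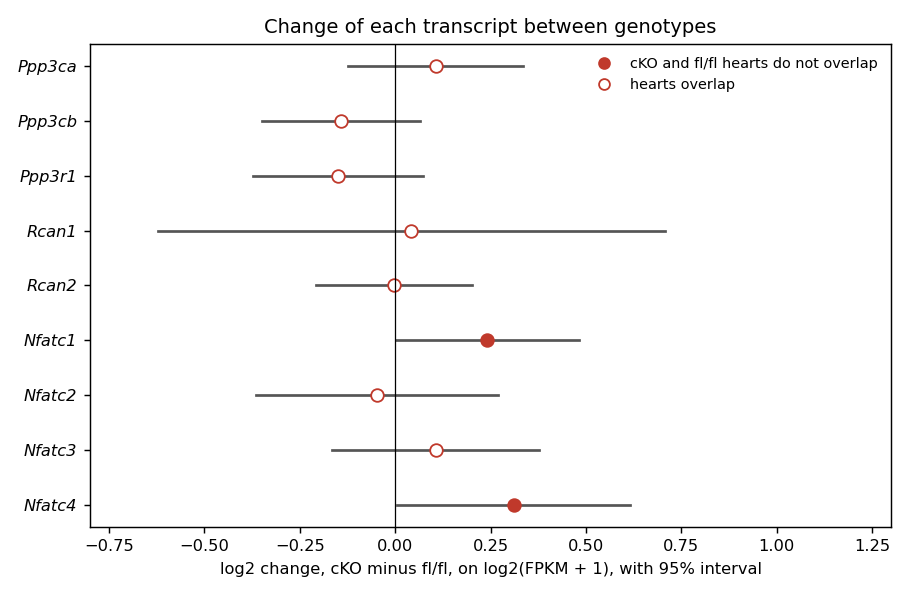
Log2 change of each transcript, cKO minus fl/fl on log2(FPKM + 1), with its 95% interval from limma (x axis), and filled points where the hearts of the genotypes do not overlap. The interval is widest for Rcan1, from -0.62 to 0.71, and the changes of Nfatc1 and Nfatc4 have lower bounds just above 0.

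Rcan1 encodes the best known inhibitor of calcineurin, and its short form, made from an internal start of the gene, is often read as a sign of calcineurin and NFAT activity in mouse hearts. RefSeq (GRCm38.p6) gives 2 starts for Rcan1, 66.1 kb apart on the minus strand of chromosome 16. The FPKM per gene adds transcripts from both starts, so the forms cannot be told apart here. The 250 bases before each start are shown because the starts differ in the short motifs they hold. Each runs 5′ to 3′ along the gene's strand, and capitals mark matches on either strand to GGAAA, the core bound by NFAT proteins (TTTCC on the opposite strand), or to CACGTG, the E-box bound by clock factors.

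Rcan1 outer start, chr16:92466170-92466419: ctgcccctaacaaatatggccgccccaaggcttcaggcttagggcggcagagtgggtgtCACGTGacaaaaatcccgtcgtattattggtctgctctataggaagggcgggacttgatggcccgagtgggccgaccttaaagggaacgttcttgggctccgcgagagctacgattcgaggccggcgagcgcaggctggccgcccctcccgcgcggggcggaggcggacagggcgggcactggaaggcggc
Rcan1 internal start, chr16:92400079-92400328: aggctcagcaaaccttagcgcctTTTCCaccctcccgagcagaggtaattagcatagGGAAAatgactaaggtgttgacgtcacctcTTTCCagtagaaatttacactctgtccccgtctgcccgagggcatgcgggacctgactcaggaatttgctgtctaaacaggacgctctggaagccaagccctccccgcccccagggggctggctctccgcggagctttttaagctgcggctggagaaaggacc

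The internal stretch held 3 matches to GGAAA, at 227, 193 and 163 bases before the start, and none to CACGTG. Among 32851 stretches of the same length in the RefSeq table, 55.6% held at least 1 match to GGAAA and 6.39% held 3 or more. The outer stretch held no GGAAA and 1 CACGTG, at 191 bases before the start, a motif found in 6.02% of these stretches. These matches are letters in a window and no measure of binding. Of the other members read in this way, Nfatc2 (at 1 of its starts), Nfatc4 and Ppp3cb also held 3 matches to GGAAA. Rcan2 held 2 at 1 of its starts, Nfatc3 held 1 at 1 start and a CACGTG at the other, and Ppp3r1 held neither motif. Stretches of Nfatc1 and Ppp3ca are not given here.

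Rcan1 varied widely between hearts of the same genotype, and the genotypes overlapped. It read 30.7, 30.4 and 53.7 FPKM in cKO 1 to 3, against 26.9, 31.9 and 53.4 FPKM in fl/fl 1 to 3. Replicate 3 was the high heart in both genotypes, and the other 4 hearts lay between 26.9 and 31.9 FPKM. The log2 change was 0.04 (SE 0.29, 95% interval -0.62 to 0.71; limma, adjusted p = 0.96). Its spread within genotypes was larger than that of 96% of tested genes. Replicate 3 stood 1.76-fold above the mean of replicates 1 and 2 in cKO and 1.82-fold in fl/fl, and 83 other tested genes (0.686%) had at least the smaller of these ratios in both genotypes. Between single hearts of the same number, which the labels do not name as pairs, the cKO over fl/fl ratio was 1.14, 0.954 and 1.01 for replicates 1, 2 and 3. With 1 heart left out the log2 change was -0.22 without cKO 3, -0.16 without fl/fl 1, -0.0392 without fl/fl 2 and 0.32 without fl/fl 3, so its sign depended on which hearts were included.

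Clock transcripts moved with the same hearts. Arntl (BMAL1), a core activator of the circadian clock, read 0.582, 0.802 and 13.7 FPKM in cKO 1 to 3, against 1.36, 0.526 and 8.84 FPKM in fl/fl 1 to 3. Dbp, a clock output factor, read 95.7, 93.6 and 8.91 FPKM in cKO, against 111.1, 125 and 22.8 FPKM in fl/fl. The labels give no collection time, and the part of any such difference in the Rcan1 levels was not tested. With replicate 3 of both genotypes as a term in the fit, the 95% interval of Rcan1 ran from -0.18 to 0.26 (limma, adjusted p = 0.856). It is narrower because the term takes up the difference of replicate 3. The log2 change, 0.04, cannot move with such a term, since each genotype has 1 heart of each number. Within replicates 1 and 2 alone the log2 change was 0.06 (limma, adjusted p = 0.89). Replicate 3 alone leaves 1 heart per genotype.

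The tested genes most like Rcan1 over the 6 libraries followed the same division. Zfp664, a zinc finger gene, had a Pearson correlation of 0.997 with Rcan1 on the log2 scale, Cx3cr1, the fractalkine receptor of macrophages, 0.993 and Auts2 0.992. These values describe 6 libraries and were the highest of 12103 genes, and they say nothing of shared control. Cx3cr1 read 1.87, 1.83 and 4.81 FPKM in cKO 1 to 3, against 1.75, 2.19 and 4.56 FPKM in fl/fl 1 to 3. Of the 9 transcripts, Rcan1 was the 1 with both replicate 3 hearts above the other 4, and Nfatc2 the 1 with both below. Over all tested genes 9.86% were above and 10% below in this way. For Ppp3ca the most similar genes were Sgms1, Cyb5d2 and Prrt4, with correlations of 0.988, 0.983 and 0.982.

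**Figure D3:**
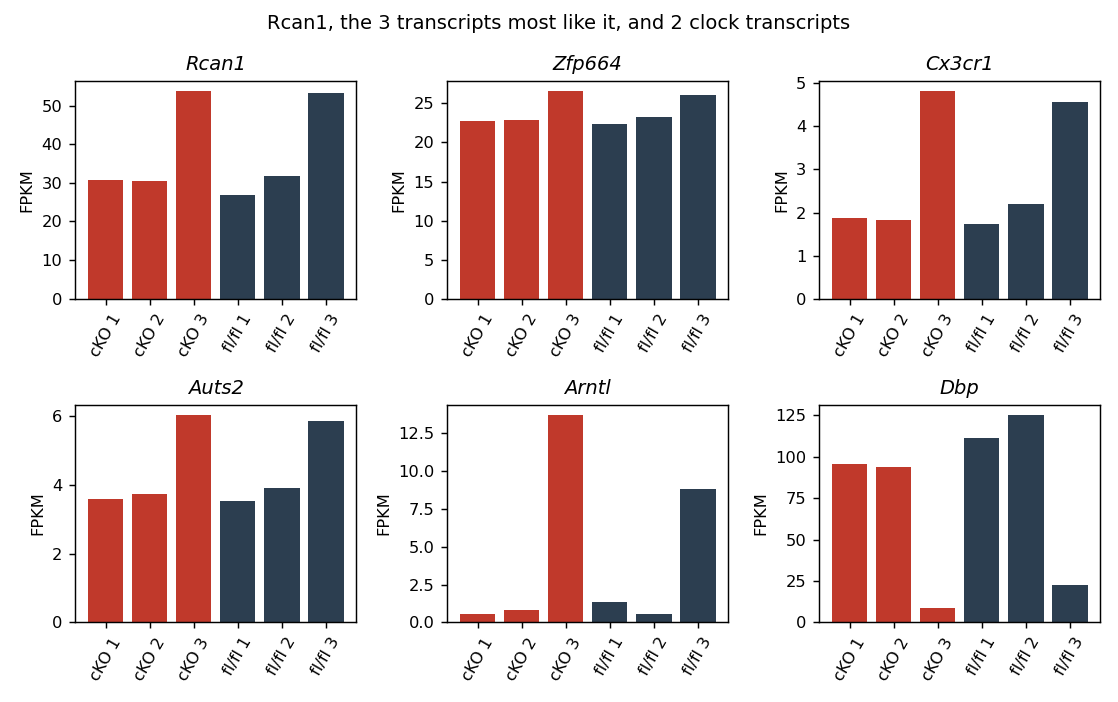
FPKM (y axes, from 0) of Rcan1, of the 3 tested genes with the highest correlation to it, and of the clock genes Arntl and Dbp in each cKO and fl/fl heart. Replicate 3 is the highest heart of its genotype in every panel but Dbp, where it is the lowest.

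Rcan2, which is abundant in heart and brain, was the steadiest of the 9. It read 199.6, 196.6 and 189.8 FPKM in cKO 1 to 3, against 189.1, 205.5 and 193.3 FPKM in fl/fl 1 to 3. The genotypes overlapped fully and replicate 3 did not stand apart. The log2 change was -0.00401 (SE 0.09, 95% interval -0.21 to 0.20; limma, adjusted p = 0.988), and its spread within genotypes was larger than that of only 2.55% of tested genes. Rcan2 exceeded Rcan1 by 6.49-fold, 6.46-fold and 3.53-fold in cKO 1 to 3, and by 7.03-fold, 6.45-fold and 3.62-fold in fl/fl 1 to 3. Replicate 3 had the lowest ratio in both genotypes, since Rcan1 was high there and Rcan2 was not. Together Rcan1 and Rcan2 stood at 4.4 ± 0.348 times the level of Ppp3ca plus Ppp3cb in cKO and 4.27 ± 0.42 times in fl/fl (SD, n = 3 each). That catalytic sum leaves out Ppp3cc, so the ratio to all catalytic transcripts is lower.

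Of the NFAT genes, Nfatc1 and Nfatc4 were higher in each cKO heart than in any fl/fl heart, and neither passed over all genes. Hearts did not overlap in this direction for 2 of the 9 transcripts, beside 10.1% of all tested genes, or 20.4% counting both directions. Nfatc4, whose protein was first described as a partner of GATA4 in hypertrophy of mouse hearts, read 2.69, 2.9 and 3.13 FPKM in cKO 1 to 3, against 2.17, 2.4 and 1.89 FPKM in fl/fl 1 to 3. The mean was 2.91 ± 0.219 FPKM in cKO and 2.15 ± 0.258 FPKM in fl/fl (SD, n = 3 each), a ratio of 1.35. On the log2(FPKM + 1) scale, which understates the change of low genes, the difference was 0.31 (SE 0.13, 95% interval 0.00466 to 0.62; limma, adjusted p = 0.389). Between hearts of the same number the ratio of cKO to fl/fl was 1.65 for replicate 3, and 1.24 and 1.21 for replicates 1 and 2. The labels name no pairing, so these are ratios of single hearts. An exact permutation test gave p = 0.1 (two-sided), the smallest value that 3 against 3 allows.

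Nfatc1, which is needed for heart valve formation in mouse embryos and is made by endocardial cells there, read 6.39, 7.25 and 7.45 FPKM in cKO 1 to 3, against 6.02, 5.86 and 5.47 FPKM in fl/fl 1 to 3. The nearest hearts of the genotypes were cKO 1 and fl/fl 1. The mean was 7.03 ± 0.566 FPKM in cKO and 5.78 ± 0.281 FPKM in fl/fl (SD, n = 3 each), a ratio of 1.22 and a log2 change of 0.24 (SE 0.10, 95% interval 0.0016 to 0.48; limma, adjusted p = 0.39). An exact permutation test gave p = 0.1 (two-sided) here too. Within replicates 1 and 2 alone the log2 changes were 0.17 for Nfatc1 and 0.21 for Nfatc4 (limma, adjusted p = 0.696 and 0.706).

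Endothelial and fibroblast markers moved in the same direction as these transcripts. All 10 endothelial and all 8 fibroblast markers had a higher mean in cKO, with 0 of either called, and their sums did not overlap between genotypes. Per 100 FPKM of the endothelial sum, Nfatc1 came to 1.09, 1.27 and 0.982 FPKM in cKO 1 to 3. In fl/fl 1 to 3 it was 1.18, 1.2 and 1.05 FPKM, and the genotypes overlapped. Nfatc4 per 100 FPKM of the endothelial sum was 0.458, 0.508 and 0.412 FPKM in cKO and 0.426, 0.492 and 0.361 FPKM in fl/fl, and per 100 FPKM of the fibroblast sum 0.226, 0.258 and 0.241 FPKM in cKO and 0.228, 0.234 and 0.172 FPKM in fl/fl. Both overlapped as well. Such ratios also carry the spread of the marker sums, and the part of cell composition in the levels of Nfatc1 and Nfatc4 was not tested.

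Nfatc3 and Nfatc2 did not separate the genotypes. Nfatc3, which acts in thymocytes and in hypertrophy of the mouse heart, read 7.82, 8.57 and 9.01 FPKM in cKO 1 to 3, against 9.03, 7.05 and 7.39 FPKM in fl/fl 1 to 3. Its highest value was in fl/fl 1, the heart with thymocyte transcripts, and the part of these in it was not tested. The log2 change was 0.11 (SE 0.12, 95% interval -0.17 to 0.38; limma, adjusted p = 0.741), and ran from 0.0431 without fl/fl 2 to 0.20 without fl/fl 1. It was 0.0647 without cKO 3 and 0.0321 within replicates 1 and 2. Nfatc2, best known from T cells, read 5.57, 4.81 and 4.51 FPKM in cKO, against 5.42, 5.88 and 4.26 FPKM in fl/fl. It was highest in fl/fl 2, and the part of the T cell transcripts of fl/fl 1 in it was not tested. In both genotypes replicate 3 was lowest. The log2 change was -0.05 (SE 0.14, 95% interval -0.36 to 0.27; limma, adjusted p = 0.913).

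Nfatc3 was the most abundant NFAT transcript and Nfatc4 the least in 6 of 6 hearts. Summed over Nfatc1 to Nfatc4 they came to 22.5, 23.5 and 24.1 FPKM in cKO 1 to 3, against 22.6, 21.2 and 19 FPKM in fl/fl 1 to 3, overlapping through cKO 1 and fl/fl 1. Nfatc3 was the largest share, at 36.2% ± 1.31 in cKO and 37.3% ± 3.57 in fl/fl. Nfatc1 made up 30.1% ± 1.41 in cKO and 27.7% ± 1.09 in fl/fl, and Nfatc2 21.3% ± 3.13 in cKO and 24.7% ± 2.75 in fl/fl. Nfatc4 was the smallest share, at 12.4% ± 0.508 in cKO and 10.3% ± 0.938 in fl/fl (SD, n = 3 each), and the 1 share of these 4 whose hearts did not overlap.

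**Figure D4:**
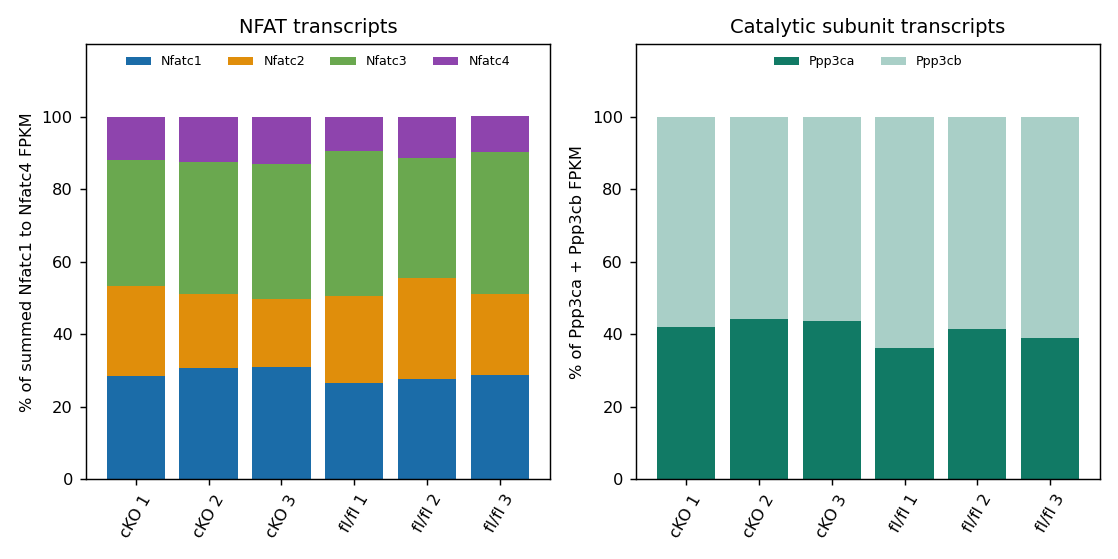
Shares in percent of summed FPKM in each cKO and fl/fl heart, for Nfatc1 to Nfatc4 (left) and for the catalytic subunit transcripts Ppp3ca and Ppp3cb, without Ppp3cc (right). The Nfatc4 share is 12% to 13% in cKO and 9.57% to 11.3% in fl/fl, and the Ppp3ca share 41.9% to 44.1% in cKO and 36.3% to 41.4% in fl/fl.

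Other genes of the pathway were read from 7 lists of 50 genes, of which 45 passed the filter. Of the 45, 2 rose and 0 fell over all genes tested, with 29 positive and 16 negative signs and a median log2 change of 0.0916 (by list, -0.104 to 0.159), beside 0.364% of all tested genes called higher and 0.223% called lower. Among genes of calcium entry, 1 of 8 rose: the T-type calcium channel Cacna1h, which conducts calcium at low voltage. It read 7.16, 6.23 and 7.09 FPKM in cKO 1 to 3, against 3.85, 2.72 and 3.64 FPKM in fl/fl 1 to 3. Every cKO heart was above every fl/fl heart, by a log2 change of 0.84 (SE 0.14; limma, adjusted p = 0.0456). The call was lost when any 1 of the 6 hearts was left out, within replicates 1 and 2, with no filter on low values, with the filter at 5 FPKM and without the variance trend. Within that list Trpc1, a cation channel of the plasma membrane, read 1.98 ± 0.128 FPKM in cKO and 3.35 ± 0.666 FPKM in fl/fl (SD, n = 3 each; log2 change -0.54; limma, adjusted p = 0.223).

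Of 6 tested genes reported to follow calcineurin activity in heart, 1 rose and 0 fell in this fit. Acta1, skeletal muscle alpha-actin, was higher in each cKO heart, at 1059, 1109 and 1566 FPKM in cKO 1 to 3, against 243.7, 138.7 and 142.6 FPKM in fl/fl 1 to 3 (limma, adjusted p = 0.00333), and reads may be shared with other actins. The Acta1 call was lost within replicates 1 and 2 and with no filter on low values. Adssl1, an adenylosuccinate synthase of muscle, read 45.8, 56 and 37.8 FPKM in cKO, against 86.4, 153 and 89.7 FPKM in fl/fl, with no overlap (log2 change -1.19; limma, adjusted p = 0.0979). It was called lower with quantile normalization, with the replicate number as a block and with replicate 3 as a term. The other 4 tested genes of the list were named after their values were seen. Nppb, a natriuretic peptide, read 345, 186 and 289 FPKM in cKO and 239.7, 81.7 and 234 FPKM in fl/fl. Myh7, the slow myosin heavy chain, read 52.5, 4.64 and 2.54 FPKM in cKO and 70.9, 19.8 and 74 FPKM in fl/fl. Nppa, the atrial natriuretic peptide, read 3231, 1040 and 2178 FPKM in cKO and 3715, 2436 and 1827 FPKM in fl/fl. It is also 1 of the 5 atrial markers summed above. Edn1, which encodes endothelin, read 4.08, 2.66 and 3.2 FPKM in cKO and 2.4, 3.19 and 2.74 FPKM in fl/fl. All 4 overlapped between genotypes, with log2 changes of 0.67 for Nppb, -2.24 for Myh7, -0.39 for Nppa and 0.18 for Edn1, and none passed (limma, adjusted p = 0.527, 0.389, 0.727 and 0.665).

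In the remaining lists 0 genes were called, and the values of the named genes follow. The calmodulin genes, which encode the same protein and have similar coding sequences, differed in sign. Calm3 read 82, 78.8 and 87.8 FPKM in cKO 1 to 3, against 100.6, 106.9 and 104.5 FPKM in fl/fl 1 to 3, and Calm2 200.8, 194.2 and 196.1 FPKM in cKO, against 157.2, 170.8 and 191.7 FPKM in fl/fl. Neither overlapped, Calm3 being lower and Calm2 higher in cKO, with log2 changes of -0.33 and 0.19 (limma, adjusted p = 0.21 and 0.472). Among 10 anchors and regulators, Myoz2, a Z disc protein that binds calcineurin in heart muscle, read 1005 ± 70.9 FPKM in cKO and 1333 ± 195 FPKM in fl/fl (SD, n = 3 each; limma, adjusted p = 0.304). Cabin1, a nuclear protein that inhibits calcineurin, read 7.18 ± 0.135 FPKM in cKO and 6.24 ± 0.609 FPKM in fl/fl (SD, n = 3 each; limma, adjusted p = 0.498).

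NFAT kinases return NFAT to the cytoplasm by phosphorylation, and 0 of 11 were called, with 5 positive and 6 negative signs. Gsk3b read 12.6, 12.7 and 12.3 FPKM in cKO, against 11, 9.7 and 10.5 FPKM in fl/fl, without overlap (log2 change 0.25; limma, adjusted p = 0.319). Dyrk1b read 13.6 ± 1.08 FPKM in cKO and 10.5 ± 1.72 FPKM in fl/fl (SD, n = 3 each; log2 change 0.34; limma, adjusted p = 0.329). Of the 4 nuclear partners tested, Mef2d read 42.1, 42.6 and 42.7 FPKM in cKO, against 37.6, 36.9 and 32.9 FPKM in fl/fl, without overlap (log2 change 0.24; limma, adjusted p = 0.319). Mef2a read 50.7 ± 2.45 FPKM in cKO and 56.7 ± 5.33 FPKM in fl/fl (SD, n = 3 each; limma, adjusted p = 0.542). Of the other family members, Rcan3 read 4.1 ± 0.368 FPKM in cKO and 3.53 ± 0.34 FPKM in fl/fl, and Nfat5, which responds to osmotic stress rather than to calcineurin, 9.84 ± 0.541 FPKM in cKO and 9.07 ± 1.63 FPKM in fl/fl (SD, n = 3 each; limma, adjusted p = 0.582 and 0.749). The files place Rcan3, Nfat5, Gsk3b and Cacna1h on stretches with other genes, so their reads may not be fully separable.

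**Figure D5:**
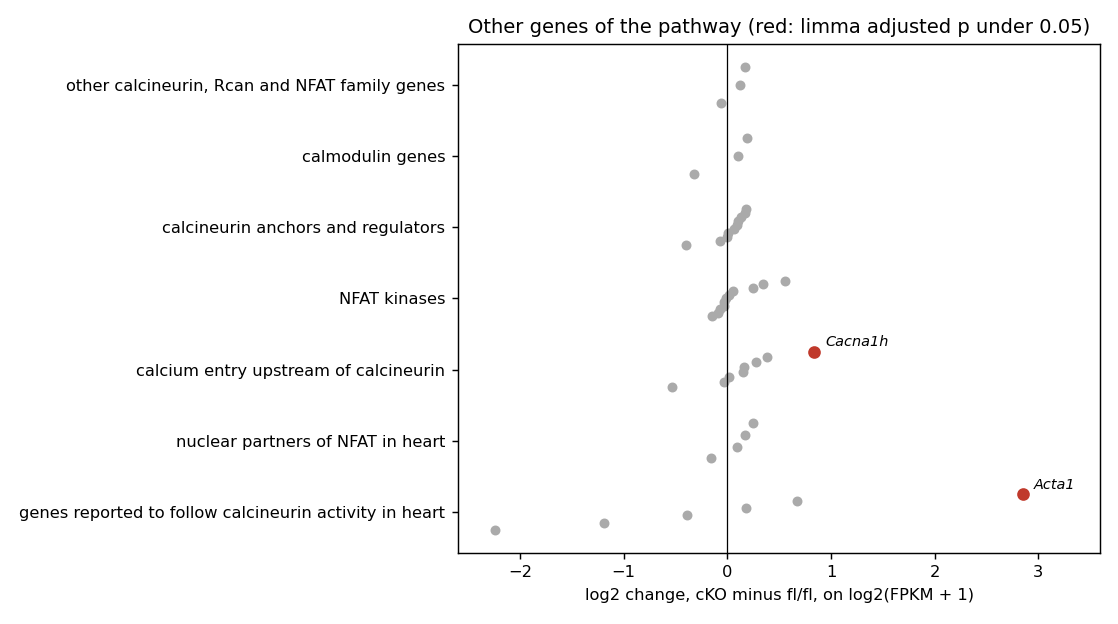
Log2 change, cKO minus fl/fl on log2(FPKM + 1) (x axis), of 45 tested genes in 7 pathway lists, with red points where the limma adjusted p is under 0.05. Acta1 and Cacna1h are the 2 red points, both to the right of 0.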

How the data were processed

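Whole-heart RNA of 6 mice was sequenced, 3 cKO and 3 fl/fl, grouped by sample title. Alignment was with TopHat 1.0.0 and quantification with Cufflinks and Cuffdiff, per the submitters' processing notes. FPKM per gene and library were deposited by the authors, with 0 replaced by 0.01, and p-values and q-values per gene are in the authors' deposited table. Read numbers are unknown, so no counting interval is given. The notes name mm10, but only 2 of the 9 members lay over their gene in the GENCODE M21 annotation of mm10. The deposited coordinates of the other members thus do not match mm10. Ppp3r1, for example, starts at 17059300 there and at 17159298 in GRCm38.p6. Which build the deposited coordinates follow is not settled, and beyond this check they were combined with no reference. RefSeq promoter sequences carry their own coordinates.

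The 12103 genes averaging 1 FPKM or more were compared between genotypes by limma (version 3.58.1, R 4.3.3; eBayes with trend; two-sided) after adding 1 and taking log2, with Benjamini-Hochberg adjustment at 0.05. Of the table, 1 row with a failed value was left out. p-values measure the spread between hearts. The scripts were tested on simulated data. Exact permutation tests used scipy 1.17.1, and figures matplotlib 3.10.9.

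Members, lists and tests were chosen with earlier results of these data known. Named genes were the 9 members, called genes of each pathway list (or the smallest p-values, up to 2), the 3 genes most correlated with Rcan1 and with Ppp3ca, Ccnc, Arntl and Dbp. Ppp3cc, Nppa, Nppb, Myh7 and Edn1 were added after their values were seen, and the motifs and shares were chosen then too. The 17 alternatives covered the pseudocount, filter, scaling, variance model, weights, replicate terms and each heart left out.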

Additional observations from a re-analysis of the deposited data

How the results depend on the processing

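None of the 9 transcripts was called under any of the 17 alternatives, and the lowest adjusted p of a member was 0.301 (limma, Nfatc1 with the replicate block). Nfatc1, Nfatc3, Nfatc4, Ppp3ca, Ppp3cb and Ppp3r1 kept their sign in every alternative run for them (Nfatc4 could not be fitted with the filter at 5 FPKM). The replicate terms, the filters and the variance trend cannot move a log2 change in this balanced design, so the sign was fixed under these. The intervals of Nfatc1 and Nfatc4 were above 0 in the main fit. Both included 0 with quantile normalization, with the replicate block (lower bounds -0.0159 and -0.0279) and within replicates 1 and 2. That of Nfatc1 also did with the filter at 5 FPKM and with array weights, and that of Nfatc4 with replicate 3 as a term. With 1 heart left out, the interval stayed above 0 only without cKO 1 for Nfatc1 and only without fl/fl 2 for Nfatc4. The other alternatives kept both above 0. Signs near 0 turned. The log2 change of Rcan1 was -0.10 with array weights, that of Rcan2 0.0751 with quantile normalization, 0.0209 with array weights and 0.00695 within replicates 1 and 2, and that of Nfatc2 0.00383 with array weights. With 1 heart left out the range was -0.22 to 0.32 for Rcan1, -0.029 to 0.0304 for Rcan2 and -0.16 to 0.0336 for Nfatc2. Shifts over 1.5 times were also seen for Nfatc3 (0.0431 without fl/fl 2, 0.0647 without cKO 3 and 0.20 without fl/fl 1). Its change was 0.0548 with array weights and 0.0321 within replicates 1 and 2. Ppp3ca shifted so too (0.058 without fl/fl 1 and 0.19 without fl/fl 2). Ppp3r1 came to -0.0871 without fl/fl 2 and -0.2279 within replicates 1 and 2. With a pseudocount of 5, Nfatc1 came to 0.1568 and Nfatc4 to 0.1445. The count of called genes, 71, was 9 with no filter on low values, 38 without the trend, 213 with the replicate block, 123 with replicate 3 as a term, 13 within replicates 1 and 2 and 13 to 34 with 1 heart left out. No filter meant 24314 genes tested, while the other settings behind these counts kept the same 12103. The count of pathway genes called, 2, was 0 with no filter and within replicates 1 and 2, 1 with the filter at 5 FPKM, without the trend and with any heart left out, and 3 with quantile normalization, the replicate block and replicate 3 as a term, where Adssl1 was called lower as well. With each heart left out Acta1 remained and Cacna1h did not. Same-numbered hearts correlated in their deviations from the group means at 0.089, 0.271 and 0.429. Hearts of different number correlated at -0.333 to 0.152. The labels name no pairing, and whether the numbers mark pairs is not settled. The main fit did not pair hearts, and the replicate block left 0 members called. The cause of these shifts was not tested. Unknown read numbers limit the low genes most, such as Nfatc4.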
